A study of Mus musculus with 9 samples.

Results

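Gonadotrophs are the cells of the anterior pituitary that make luteinizing hormone (LH) and follicle-stimulating hormone (FSH). In single-cell RNA-seq of mouse brain tissue, 552 of the 10113 cells of 3 libraries were gonadotroph-like (5.46%, exact 95% binomial interval 5.02 to 5.92), out of 29571 cells in 9 libraries. Cells were chosen by these genes: a cell was taken where its Lhb and Fshb UMIs (unique molecular identifiers, each counting 1 captured transcript) summed to at least 5 and Gh, the growth hormone gene, took under 50% of its UMIs. The numbers were 216 of 3491 cells of library 4 (6.19%, 5.41 to 7.04), 62 of 2706 of library 5 (2.29%, 1.76 to 2.93) and 274 of 3916 of library 6 (7.0%, 6.22 to 7.84). None was found among the 19458 cells of the other 6 libraries, where a floor of 3 cells is a share of 0.0154%. The share was lowest in library 5, and its interval did not overlap those of libraries 4 and 6. All intervals cover counting error only.

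The study took brainstem, cortex and hypothalamus of male C57BL/6 mice (C57BL/6J in the methods of the study) of 9 to 11 weeks. The mice had normal sleep, 12 h of sleep deprivation from lights on, or that deprivation followed by recovery sleep, which the labels give as 12 h in one place and 24 h in another. The labels name these 3 brain regions and no pituitary. Tissue was collected at ZT12 (lights off), and each of the 9 libraries was a suspension pooled from 3 mice of one region and sleep group. The count table names libraries by codes that the labels do not explain. They were numbered in the order of the table, libraries 4, 5 and 6 were not assigned to a region or sleep group, and no comparison of sleep groups was made. With 1 pool behind each library there is no replicate of a region and sleep group. Values are given for each library, and no test was made.

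LH and FSH are dimers that share an alpha subunit, encoded by Cga, and differ in the beta subunit, encoded by Lhb or Fshb. Gonadotropin-releasing hormone (GnRH) from the hypothalamus acts on its receptor Gnrhr, a receptor coupled to Gq proteins, and drives the synthesis and release of both hormones. The orphan nuclear receptor SF-1, encoded by Nr5a1, is the lineage factor of these cells in the pituitary, where it acts on Lhb, Cga and Gnrhr together with Pitx factors and, on Lhb, with the GnRH-induced factor Egr1.

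The sequences before the start sites of the genes that carry the identity of these cells are shown because the factors just named bind short motifs there. Each run holds the 250 bases before the RefSeq start of the gene on GRCm38.p6, written 5′ to 3′ on the gene's strand. Capitals mark matches on either strand to AAGGNCA (SF-1 type), TAATC (Pitx type) and CNCCCCC (Egr type).
Lhb (chr7:45420696-45420945, plus strand): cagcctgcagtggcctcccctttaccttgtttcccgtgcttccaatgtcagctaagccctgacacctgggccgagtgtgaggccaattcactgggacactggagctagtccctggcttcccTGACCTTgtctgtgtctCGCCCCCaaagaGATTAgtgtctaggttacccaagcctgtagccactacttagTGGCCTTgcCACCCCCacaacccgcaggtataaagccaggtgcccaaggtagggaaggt
Fshb (chr2:107059652-107059901, minus strand): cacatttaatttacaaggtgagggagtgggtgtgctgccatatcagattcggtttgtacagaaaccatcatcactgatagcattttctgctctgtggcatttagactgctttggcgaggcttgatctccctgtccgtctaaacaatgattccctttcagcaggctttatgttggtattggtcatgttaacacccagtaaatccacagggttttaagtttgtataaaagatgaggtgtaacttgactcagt
Cga (chr4:34893529-34893778, plus strand): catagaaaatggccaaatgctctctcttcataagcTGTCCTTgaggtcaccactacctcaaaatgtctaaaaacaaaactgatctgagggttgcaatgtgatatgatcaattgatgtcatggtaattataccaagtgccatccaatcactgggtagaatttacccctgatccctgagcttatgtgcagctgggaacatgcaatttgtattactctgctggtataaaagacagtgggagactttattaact
Gnrhr (chr5:86197902-86198151, minus strand): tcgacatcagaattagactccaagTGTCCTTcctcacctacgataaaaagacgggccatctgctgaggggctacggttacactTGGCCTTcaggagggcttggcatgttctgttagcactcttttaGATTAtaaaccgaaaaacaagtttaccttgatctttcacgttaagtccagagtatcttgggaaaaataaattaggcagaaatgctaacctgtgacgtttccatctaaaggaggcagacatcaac

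Lhb had a match to each of the 3 motifs in this window. Those of SF-1 type lay at -129 to -123 and -59 to -53, those of Egr type at -112 to -106 and -50 to -44, and that of Pitx type at -100 to -96, counted from the base before the start. Gnrhr had matches of SF-1 type at -226 to -220 and -167 to -161 and of Pitx type at -124 to -120, where the last bases overlap a TATAAA at -121 to -116. In Cga the match of SF-1 type lay at -215 to -209, and the Fshb window held only a TATAAA at -30 to -25. Of 32851 promoter windows of this length, 17.5% held the SF-1 type motif, 19.8% the Pitx type, 31.4% the Egr type and 12.4% TATAAA. These are matches of letters, not measured binding.

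The values that chose the cells are given as a description. Lhb took 4.13%, 5.43% and 3.91% of the UMIs left without Gh, Prl and Pomc in libraries 4, 5 and 6. For Fshb the shares were 0.607%, 0.871% and 0.561%. A cell held a median of 60 Lhb UMIs (1 to 341) and 8 Fshb UMIs (0 to 41). The minimum lay in a thinly filled range. Among cells with under 50% Gh, 504 had a sum of at least 12, 11 had a sum of exactly 5, 13 had 4 and 13 had 3, while 64 had 2 and 567 had 1. Just inside the minimum, the 48 cells with a sum of 5 to 11 held a median of 25.5 Cga UMIs, and 18 of them had a Gnrhr UMI. Just outside it, the 26 cells with a sum of 3 or 4 and under 50% Gh held a median of 6.5 Cga UMIs, and 2 had a Gnrhr UMI. The limit on Gh left out no cell that met the minimum, and the 3 highest Gh shares among the chosen cells were 48.1%, 34.8% and 33.6%.

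Detection of both beta subunits is also a description, since their UMIs chose the cells. Lhb and Fshb UMIs were found together in 535 of 552 cells (96.9%, 95.1 to 98.2), in 209 of 216, 61 of 62 and 265 of 274 cells of libraries 4, 5 and 6. All 552 cells had Lhb. Among the 9561 other cells of the 3 libraries an Lhb UMI was found in 9.21% and an Fshb UMI in 1.18%. The 17 cells without an Fshb UMI had a median of 10 Lhb UMIs, and the highest of them had 144. Only 10 cells had more Fshb than Lhb UMIs, and these held 1 to 7 Lhb UMIs. Of the Lhb and Fshb UMIs together, Fshb gave 12.8% in library 4 (12.3 to 13.3), 13.8% in library 5 (12.8 to 14.9) and 12.6% in library 6 (12.1 to 13). The intervals of the 3 libraries overlapped. The median cell had 13.3% (quartiles 8.52 and 21.4). After thinning each cell to 300 UMIs of genes other than Gh, Prl and Pomc, 79.5% of cells still had both. UMIs are not corrected for how well each transcript is captured, so this share compares libraries and cells, not the amounts of the 2 mRNAs.

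**Figure D1:**
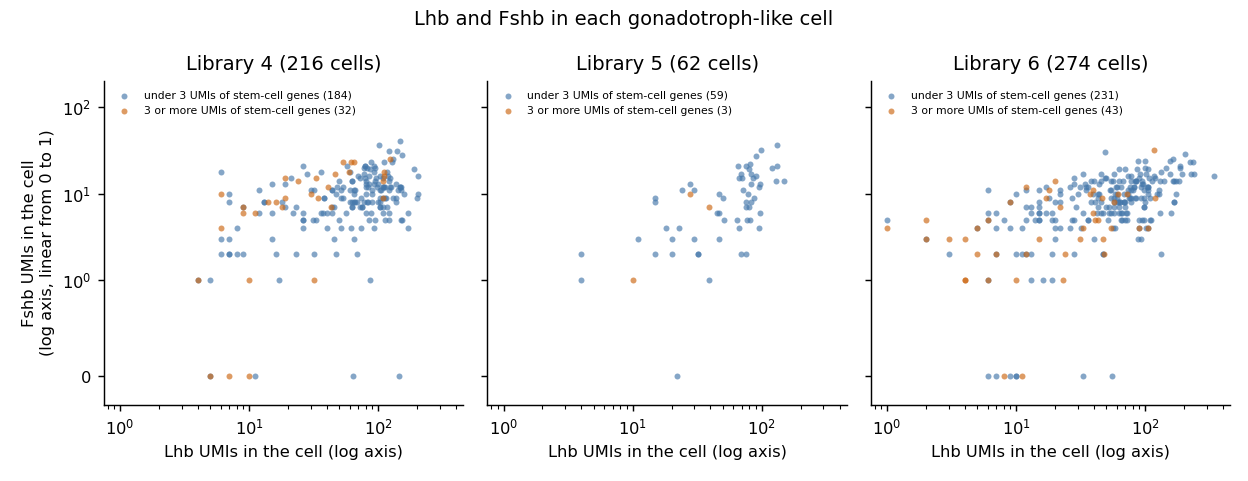
Each point is 1 gonadotroph-like cell, with its Lhb UMIs on the x axis (log) and its Fshb UMIs on the y axis (log, linear from 0 to 1), in 1 panel per library. Orange points are cells that also held 3 or more UMIs of the stem-cell genes Mia, Cyp2f2, Aldh1a2 and Sox2, and 17 cells lie at 0 Fshb.

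Cga, which the choice of cells did not use, was found in all 552 of them, with a median of 169.5 UMIs (4 to 959). It took 12.6% of UMIs without Gh, Prl and Pomc in library 4, 15.6% in library 5 and 11.1% in library 6. Scaled to a total of 1000000 UMIs without those 3 genes (CPM, used from here on), Cga stood at 121186 (120453 to 121921) in gonadotroph-like cells and at 709.9 in 3153 Gh-high cells, a 171-fold difference. Gh-high cells of the same libraries, those with at least 50% Gh, served as the main comparison because they were the most numerous endocrine cells. Pomc-high cells (711, with Pomc at 10% or more of the UMIs left without Gh and Prl) had 444 CPM. Cga was present in 28.1% of Gh-high, 25.2% of Pomc-high and 18.2% of 231 microglia, a cell type that should lack it, at median depths of 1229, 843 and 522 UMIs against 1332.5 in gonadotroph-like cells. Without Gh, Prl and Pomc these median depths were 439, 610 and 515 UMIs against 1315, so the classes were not matched in depth. At 300 UMIs per cell the shares were 98.7%, 19%, 11.2% and 9.13% in gonadotroph-like, Gh-high and Pomc-high cells and microglia. In 39 cells with at least 5 Tshb UMIs, which encode the beta subunit of thyroid-stimulating hormone, Cga stood at 50121 CPM. Tshb itself was at 28.9 CPM in gonadotroph-like cells (54.8, 0 and 11.6 in libraries 4, 5 and 6) and at 14649 CPM in the Tshb cells that it defined.

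Within a library, cells with a larger share of Lhb also had a larger share of Cga. Pearson's r and Spearman's rho were 0.522 and 0.525 over 216 cells of library 4, 0.381 and 0.428 over 62 of library 5, and 0.580 and 0.644 over 274 of library 6. For Lhb and Fshb they were 0.227 and 0.290, 0.178 and 0.195, and 0.392 and 0.481. Without the cells that carried stem-cell genes, described further on, the rho of Lhb and Cga was 0.346, 0.355 and 0.473, and that of Lhb and Fshb 0.0766, 0.103 and 0.262. The 2 shares of a pair come from the same cell with the same total, and cells of a library are not replicates.

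Transcripts of the GnRH receptor were found in these cells and in none of 4 comparison classes. Gnrhr stood at 430.1, 798 and 469 CPM in libraries 4, 5 and 6 and at 479 (434 to 528) in all. Its 415 UMIs were spread over 260 cells (47.1%, 42.9 to 51.4). Gh-high, Pomc-high, Tshb and microglia cells had 0 Gnrhr UMIs, so the level was at least 253-fold that of Gh-high and at least 78.5-fold that of Pomc-high cells, against a floor of 3 counts over the class. Of all 9561 cells of the 3 libraries that were not gonadotroph-like, 21 had a Gnrhr UMI (0.220%). In the 693 of them with stem-cell genes, described further on, Gnrhr stood at 6.13 CPM in 1.30% of cells. The share of gonadotroph-like cells with a Gnrhr UMI was 14.7% at 300 UMIs per cell. Tgfbr3l, which encodes a co-receptor of gonadotrophs for inhibin B, stood at 3233, 5089 and 2863 CPM, and was found in 85.9% of cells. Gh-high cells had 19.6 CPM in 0.951% of cells, a 163-fold difference, and microglia had 0 UMIs. At least 1 UMI of Gnrhr, Nr5a1 or Tgfbr3l was present in 506 cells (91.7%, 89.0 to 93.8), 65.2% after thinning, against 0.983% of Gh-high and 0.985% of Pomc-high cells, 0.861% and 0.565% after thinning.

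**Figure D2:**
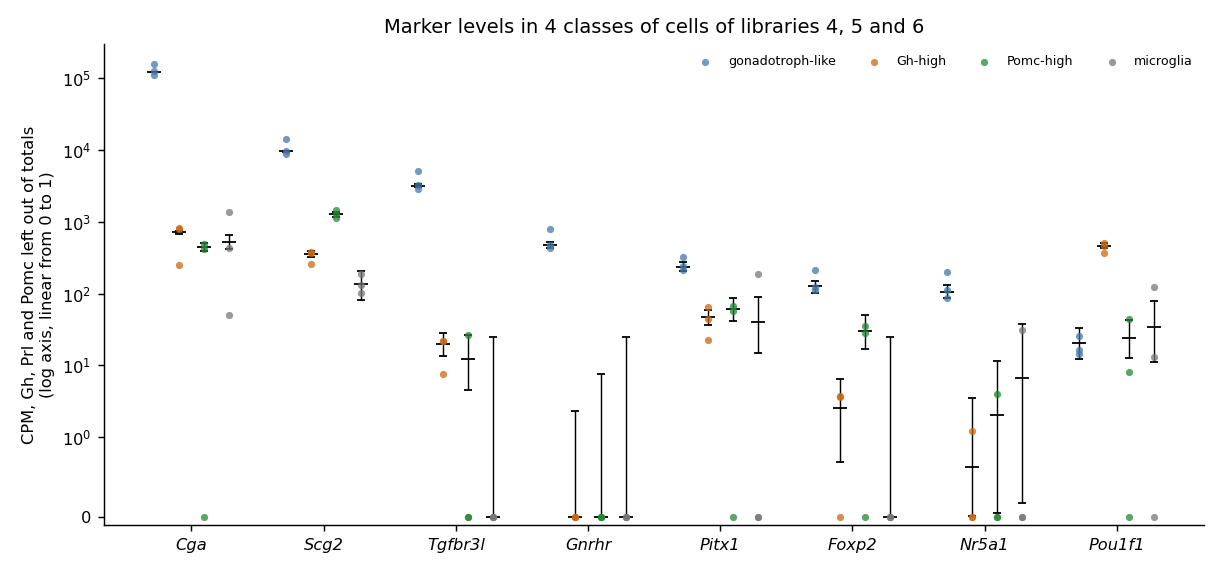
Levels of 8 genes in CPM with Gh, Prl and Pomc left out of totals (y axis, log, linear from 0 to 1) in 4 classes of cells. Points are libraries 4, 5 and 6, and the black bar is the level over all cells with its exact 95% Poisson interval. Gnrhr had UMIs in gonadotroph-like cells and none in the 3 other classes, while Pou1f1 was high in Gh-high cells.

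Over all genes, 439 of 7289 tested genes (6.02%) were at least 2-fold higher in gonadotroph-like than in Gh-high cells, 360 of them higher in each of the 3 libraries, and 800 (11.0%) were at least 2-fold lower, 772 of them lower in each library. A gene was tested where it reached 20 CPM in either class, and the fold was taken on CPM plus 10, which understates the change of low genes. A gene under 20 CPM in Gh-high cells was thus tested only through its level in gonadotroph-like cells. Counts of list genes called higher below are therefore a description. The median tested gene stood at -0.28 on this log2 scale. Centred on that median, 633 genes were higher and 438 lower. With Gh, Prl and Pomc kept in the totals the counts were 2710 and 55 of 5849 tested, since Gh takes a median of 63.7% of the UMIs of a Gh-high cell. Against Pomc-high cells, 437 of 6898 genes (6.34%) were higher and 439 (6.36%) lower, around a median of -0.16. Of these, 340 were higher and 198 lower in each of the 3 libraries. Centred, the counts were 574 higher and 299 lower, and with all genes in the totals 733 and 150 of 6223 tested. Library 5 held only 18 Pomc-high cells. With 50 CPM added in place of 10, several low genes described as higher below were under 2-fold: Fgfr1 (0.93), Adcyap1r1 (0.78), Lhx3 (0.65), Nr0b1 (0.78), Neurod1 (0.97), Prkcb (0.94) and Fstl1 (0.48). So were Nr3c1 (-0.74), Insr (-0.59), Neurod4 (-0.71), Fstl3 (-0.49), Camk2d (-0.79), Cacna1d (-0.75), Kcnn2 (-0.64) and Atf3 (-0.67) of those described as lower. Log2 differences below are on CPM plus 10, against Gh-high cells unless named otherwise.

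Of 11 tested receptor genes, 5 were at least 2-fold higher and 2 lower than in Gh-high cells, beside 6.02% and 11.0% of all tested genes, with a median of 0.78 against -0.28 over all tested genes. The higher ones included, beside Gnrhr and Tgfbr3l, a pair of genes at lower levels. Fgfr1, an FGF receptor, was at 63.5 against 9.48 CPM and Adcyap1r1, the receptor of the neuropeptide PACAP, at 53.1 against 10.1. In Tshb cells Fgfr1 stood higher, at 126.9 CPM, and Adcyap1r1 at 28.2. Over all cells of the libraries that were not gonadotroph-like they stood at 83.8 and 29.7 CPM. Esr1, the estrogen receptor alpha, was at 173, 143 and 104 CPM by library, 0.78 above Gh-high cells, which had 75.2 CPM, and 2.72 above Pomc-high cells, which had 12.2. The lower ones were Nr3c1, the glucocorticoid receptor (67 against 145 CPM), and Insr, the insulin receptor (20.8 against 56.9). For both the direction turned with all genes in the totals, to 0.31 and 0.02, and neither was 2-fold lower than in Pomc-high cells. Nr3c1 stood at -0.90 without library 5 and Insr at -0.66 without library 6. The activin receptor genes Acvr2a, Acvr2b and Acvr1b, at 8.08, 8.08 and 6.93 CPM, were too low to test, and Kiss1r, the kisspeptin receptor, had 3 UMIs in all. Against Pomc-high cells 6 of 11 were higher, Esr1 among them, and 0 lower, beside 6.34% and 6.36% of all genes tested in that comparison.

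Most of the tested transcription factors of the lineage were higher. Of 11 tested, 7 were at least 2-fold higher than in Gh-high cells and 0 lower, beside 6.02% and 11.0% of all tested genes, with a median of 2.09. Against Pomc-high cells 7 of 11 were higher and 1 (Nr4a1) lower, beside 6.34% and 6.36% of all genes tested in that comparison. The 7 were not the same genes in both comparisons. Nr5a1 stood at 112, 199.6 and 85.9 CPM in libraries 4, 5 and 6, with 92 UMIs in 15% of cells against 1 UMI over all Gh-high cells. Its antisense neighbour Nr5a1os shares 1867 bases with it. Foxp2, a forkhead factor, had 112, 214 and 123 CPM by library against 2.53 in Gh-high and 30.5 in Pomc-high cells. Isl1, a LIM homeodomain factor, was at 88.9 CPM against 3.16, and at 239.7 CPM in Tshb cells. Gata2, which acts in gonadotrophs and thyrotrophs, was at 86.6 against 12.6 CPM, again with a Tshb-cell level of 155. Pitx1, a factor of the whole anterior pituitary, was at 216, 328 and 241 CPM by library, 5.09-fold the 46.8 CPM of Gh-high cells, and at 536 CPM in Tshb cells. Nr0b1, which encodes DAX-1, had 31 UMIs and none in Gh-high cells (at least 18.9-fold higher). Lhx3 stood at 53.1 CPM against 15.8 in Gh-high cells, but at 48.9 in Pomc-high cells (a difference of 0.10) and 42.3 in Tshb cells. Egr1 was at 240.2 CPM in gonadotroph-like and 324 in Gh-high cells, a difference of -0.42, without a 2-fold change. Foxl2, known as a factor of Fshb transcription, had 2 UMIs in all.

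Of 3 tested factors of other endocrine lineages, 2 were lower than in Gh-high cells and 1 was higher, beside 11.0% and 6.02% of all tested genes, and 2 of 4 were lower than in Pomc-high cells, beside 6.36%. Pou1f1, which specifies cells that make growth hormone, prolactin and thyroid-stimulating hormone, stood at 16.4, 14.3 and 25.5 CPM by library against 459, 370.2 and 500.1 in Gh-high cells, and Neurod4 had 3 UMIs against 37.3 CPM, under 2-fold lower with all genes in the totals (-0.78). Tbx19, the factor of Pomc cells, was at 11.5 CPM against 2.53 in Gh-high and 128 in Pomc-high cells. Pax7, a melanotroph factor, had 0 UMIs, against 143 CPM in Pomc-high cells. Neurod1 went the other way, at 52 CPM (71.2, 14.3 and 41.8 by library) against 1.90 in Gh-high and 26.5 in Pomc-high cells.

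Activins and inhibins are dimers that raise or lower Fshb, and a gonadotroph can make subunits itself. Inhbb, the beta B subunit, was at 79.4, 85.5 and 53.4 CPM by library, in 9.06% of cells, with 58 UMIs against 2 in Gh-high and 0 in Pomc-high cells. Inha, the alpha subunit, stood at 12.7 against 15.8 CPM. Fst, encoding the activin-binding follistatin, had 1 UMI in all. Of the 5 tested genes of this list, 2 were higher (Inhbb and Fstl1) and 1 lower (Fstl3, 6.93 against 29.7 CPM), beside 6.02% and 11.0% of all tested genes, with a median of 0.03. The higher level of Fstl1 rested on the cells with stem-cell genes: its difference of 1.28 became -0.19 without them, and 0.78 without library 6. Fstl3 stood at -0.85 without library 6 and at -0.28 with all genes in the totals.

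Downstream of the GnRH receptor, 3 of 16 tested genes were higher and 1 lower, beside 6.02% and 11.0% of all tested genes, with a median of 0.20. Rgs4, which limits signalling through Gq, was at 219, 214 and 235 CPM by library against 8.85 in Gh-high and 14.3 in Pomc-high cells, and was found in 27.4% of cells. Prkcb, a protein kinase C, was at 75.1 against 15.2 CPM. Rgs2 was at 171 against 51.8 CPM, a difference of 1.55 that fell to 0.32 without the cells with stem-cell genes. Camk2d, a calmodulin kinase, was lower, at 78.5 against 173 CPM, and stood at 0.31 with all genes in the totals and just under 2-fold without library 4 or without library 5 (-0.99). The Gq genes Gnaq and Gna11 stood at 0.53 and 0.05, and the kinase gene Mapk3 at 0.29. Against Pomc-high cells 4 of 16 were higher (Itpr1, Prkcb, Prkce and Rgs4) and 1 lower (Calm2), beside 6.34% and 6.36% of all genes tested in that comparison. In library 5 Itpr1 stood at -0.29 and Prkce at -1.09. Itpr1 stood at 0.90 with 50 CPM added, and Calm2 at -0.88 with all genes in the totals.

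Some genes of the secretory granule were higher than in Gh-high cells. Of 14 tested, 6 were at least 2-fold higher and 0 lower, beside 6.02% and 11.0% of all tested genes, with a median of 0.28. Pcsk1n, an inhibitor gene of prohormone convertase, lay at the limit (1.00), and was under it without library 4 (0.99) or library 6 (0.88). Among the others, the granin Scg3 stood at -0.11, the carboxypeptidase gene Cpe at 0.03 and Sytl4, a granule effector gene, at -0.92. Scg2, secretogranin II, was at 9788, 14028 and 8784 CPM in libraries 4, 5 and 6, 27-fold the 357 CPM of Gh-high cells and 7.51-fold the 1283 of Pomc-high cells. Chga, chromogranin A, was at 3769.6, 5731 and 2322 CPM by library, 26.7-fold the level of Gh-high cells, and at 6809.7 CPM in Tshb cells. Both were highest in library 5. Its relative Chgb was at 865 against 673 CPM, and at 7726 in Tshb cells. The prohormone convertase gene Pcsk1 was at 248 against 41.1 CPM in Gh-high and 34.6 in Pomc-high cells. The other convertase gene, Pcsk2, was at 203 against 58.2 in Gh-high cells but 2854 in Pomc-high cells. Pam, an amidating enzyme that acts on peptide hormones, stood at 819 against 1605 CPM, a difference of -0.96, and at 2007 in Pomc-high cells, at least 2-fold above gonadotroph-like cells. Against Pomc-high cells 3 of 15 were higher (Chga, Scg2 and Pcsk1) and 3 lower (Pcsk2, Pam and Ptprn2), beside 6.34% and 6.36% of all genes tested in that comparison. Of those 3, 1 was lower in each of the 3 libraries. Pam stood at -0.99 without library 6 and at -0.82 with all genes in the totals. Ptprn2 stood at -0.76 without library 4 and was 1.28 higher in library 5, which held 18 Pomc-high cells.

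Of 8 tested exocytosis genes, 1 was at least 2-fold higher and 2 were lower, beside 6.02% and 11.0% of all tested genes, with a list median of -0.36. The higher one was Rab3b, a granule GTPase (236 against 86 CPM), and Syt1 was among the lower ones. Rab3b stood at 169 CPM in Pomc-high cells, a difference of 0.46, and at 296 in Tshb cells. Against Pomc-high cells 0 of 8 tested exocytosis genes were higher and 3 lower, beside 6.34% and 6.36% of all genes tested in that comparison. Syt1, the calcium sensor synaptotagmin 1, was at 54.8, 14.3 and 32.5 CPM by library against 300.0, 262 and 216 in Gh-high cells and 495 in Pomc-high cells, and stood at -0.97, under 2-fold lower than in Gh-high cells, with all genes in the totals. Syt4 stood at 244 against 263. Folding and glycan genes, which serve glycoprotein hormones, differed by less than 2-fold on CPM plus 10 in all 12 tested, with a median of 0.04, and Hspa5, Calr and Pdia3 stood at 0.16, 0.44 and 0.19. The sulfotransferase gene Chst8, which adds sulfate to the sugars of LH, was at 37 CPM against 17.7 in Gh-high and 79.4 in Pomc-high cells, a ratio of 2.09 to Gh-high cells without the added 10. Of 5 tested channel genes, Cacna1d and Kcnn2 were lower (11.0% of all tested genes were) and none was higher. With all genes in the totals they stood at -0.13 and -0.24, and Kcnn2 stood at -0.91 without library 4.

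**Figure D3:**
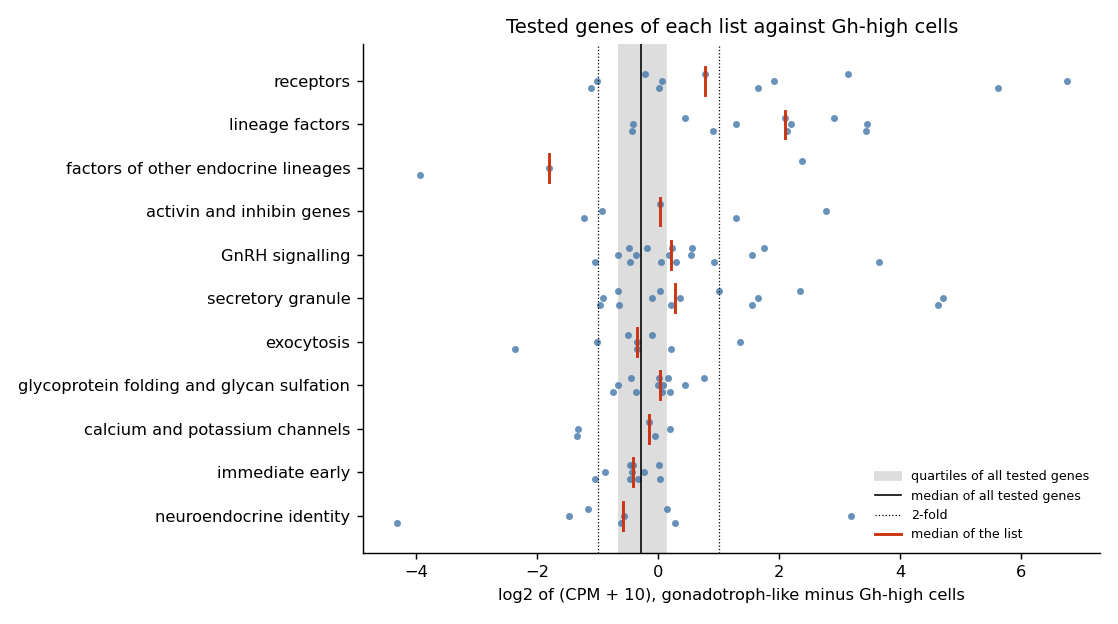
Each point is a tested gene of the list named on the y axis, at the log2 difference of CPM + 10 between gonadotroph-like and Gh-high cells (x axis). Red bars are list medians, the black line and grey band are the median (-0.28) and quartiles of all tested genes, and dotted lines mark 2-fold. The median of the lineage factors lies at 2.09 and that of the receptors at 0.78.

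Of 10 tested immediate early genes, 0 were 2-fold higher than in Gh-high cells and 1, Atf3, was lower, with a median of -0.42. These counts are near the shares over all tested genes (6.02% and 11.0%). Fos stood at 490.4, 1240.3 and 1036 CPM in libraries 4, 5 and 6 of gonadotroph-like cells and at 576, 2337 and 1096 in Gh-high cells, lower in gonadotroph-like cells within each library. In both classes Fos was lowest in library 4 and highest in library 5. Jun stood at 348, 556 and 453 and 181, 946 and 380.3 CPM in the same order. Atf3 was at 13.7, 114 and 51.1 against 6.04, 280.4 and 86.8 CPM, lower in libraries 5 and 6 and higher in library 4, and stood at -0.59 without library 5 and at 0.21 with all genes in the totals. Against Pomc-high cells Fosb, Jun and Atf3 were higher and Nr4a1 lower, beside 6.34% and 6.36% of all genes tested in that comparison. The level of Nr4a1 rested on library 4: its difference of -1.26 became -0.011 without that library, and was -1.84, 2.74 and -0.07 in libraries 4, 5 and 6. Fosb stood at 0.99 without library 4.

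Beyond these lists, the genes with the highest ratio to Gh-high cells, among those found in at least 10% of cells and higher in all 3 libraries, began with Fshb and Lhb, which chose the cells, followed by Cga, Tgfbr3l and Gnrhr. Spp1, osteopontin, stood at 1077, 1554 and 894 CPM by library, in 60.5% of cells, against 13.3 in Gh-high, 2.04 in Pomc-high and 122 in microglia. Ly6h, a GPI-anchored protein gene, was at 2306 against 125 CPM in Gh-high and 1405 in Pomc-high cells, and Serpine2, a protease inhibitor gene, at 603 against 42.4 and 34.6. Figf, which encodes VEGF-D, was at 136 against 3.16 CPM and at 310.2 in Tshb cells. The noncoding RNA Rmst was at 237 against 12.6 CPM, and March11 and 1500009L16Rik at 103 and 164 against 1.90 each. In Tshb cells these 3 stood at 183, 84.6 and 0 CPM. Speer4e had 148, 114 and 323 CPM by library and 0 UMIs in Gh-high, Pomc-high and microglia cells, but belongs to a family of near-identical copies, so its identity is uncertain. Igfbp5, also among these genes at 3.83, was at 1121 CPM, below the 1494 of Tshb cells. Its difference from Gh-high cells stood at 2.12 without the cells with stem-cell genes. Mia was among them too, and is 1 of the genes by which those cells were picked.

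The lowest ratios included Pou1f1 and other genes known from growth hormone cells. Dlk1, a Notch-like ligand known from somatotrophs, was at 151, 28.5 and 290.3 CPM by library against 4263, 3657 and 4756 in Gh-high cells, 21-fold higher there. Dapl1 was at 24.3 against 867 CPM and the noncoding RNA Snhg18 at 119 against 1355. Ghrhr, the receptor for growth hormone-releasing hormone, had 3 UMIs, 0 of them in libraries 4 and 5, against 231 CPM. Gpx3, Htatsf1 and 5330429C05Rik were also lower in each library. Of the imprinted genes, Meg3 was at 5572 against 12541 CPM and Nnat at 1985 against 5518, differences of -1.17 and -1.47 that became 0.32 and 0.01 with all genes in the totals.

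**Figure D4:**
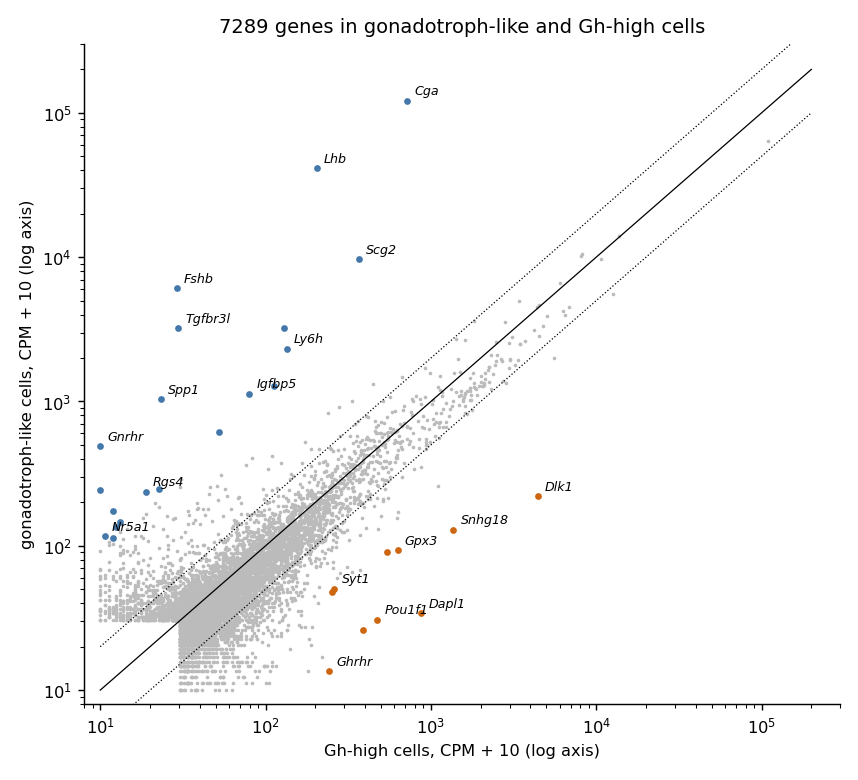
Each point is 1 of 7289 tested genes, with its CPM + 10 in Gh-high cells (x axis, log) and in gonadotroph-like cells (y axis, log). The solid line marks equal levels and dotted lines 2-fold, and coloured points are the genes that the rule takes for the highest (blue) and lowest (orange) ratios, with Cga at the top and Ghrhr at the bottom.

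Some gonadotroph-like cells also held transcripts of pituitary stem cells. Mia, Cyp2f2, Aldh1a2 and Sox2, genes known from the Sox2-positive stem cells of the pituitary and picked here after the profile had been seen, summed to at least 3 UMIs in 78 of 552 cells (14.1%, 11.3 to 17.3). These were 32 of 216 cells in library 4 (14.8%), 3 of 62 in library 5 (4.84%) and 43 of 274 in library 6 (15.7%). The same sum was reached by 0.444% of Gh-high cells, 0.281% of Pomc-high cells, 5 of 39 Tshb cells (12.8%, 4.30 to 27.4) and 1.73% of microglia. Among all cells of the 3 libraries that were not gonadotroph-like the share was 7.42%. At 300 UMIs per cell, at least 1 UMI of these genes was found in 12% of gonadotroph-like (9.37 to 15), 2.71% of Gh-high (2.10 to 3.43), 3.39% of Pomc-high (2.18 to 5.0), 5.13% of Tshb cells (0.627 to 17.3) and 3.04% of microglia (1.23 to 6.17). Since the genes were picked for their level in gonadotroph-like cells, these shares are a description. Among all cells that were not gonadotroph-like the share at this depth was 10.8% (10.1 to 11.4). Those cells include the 693 chosen for these genes, which gave 549 of the 946 cells behind that share. A Gh-high cell must by definition keep 50% Gh, and 107 of the 693 cells that held these genes and were neither gonadotroph-like nor Gh-high nor Pomc-high had over 5% Gh.

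These 78 cells differed from the other 474 in depth and in hormone content. They held a median of 2929.5 UMIs and 1440 genes, against 1244 UMIs and 607 genes in the other gonadotroph-like cells and 1673 UMIs in the 693 other cells with stem-cell genes. Above 2000 UMIs lay 64 of the 78 and 57 of the 474. Median Lhb and Fshb UMIs summed to 31 against 75.5, and median Cga UMIs were 85.5 against 181, so these cells held fewer hormone transcripts both per cell and per UMI. Gnrhr was found in 46.2% of them at 209.7 CPM and in 47.3% of the others at 585 CPM, and Tgfbr3l stood at 1098 against 4019.8 CPM. Mia, which helped to choose them, was at 4405 CPM, close to the 4586 of the 693 cells. Of genes that did not, Hes1, a Notch target, was at 637 against 24.1 CPM in the others, Igfbp5 at 3134 against 336 and Lcn2 at 403 against 1.61. Sox9, a stem cell factor, stood at 193 CPM in the 78, 8.03 in the others and 469 in the 693. S100b, a marker of folliculostellate cells, was at 8.23 CPM (2 UMIs, 0.996 to 29.7) in the 78 and at 626 CPM in the 693, where 32.2% of cells had it. Whether each of these barcodes held 1 cell or more was not tested.

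**Figure D5:**
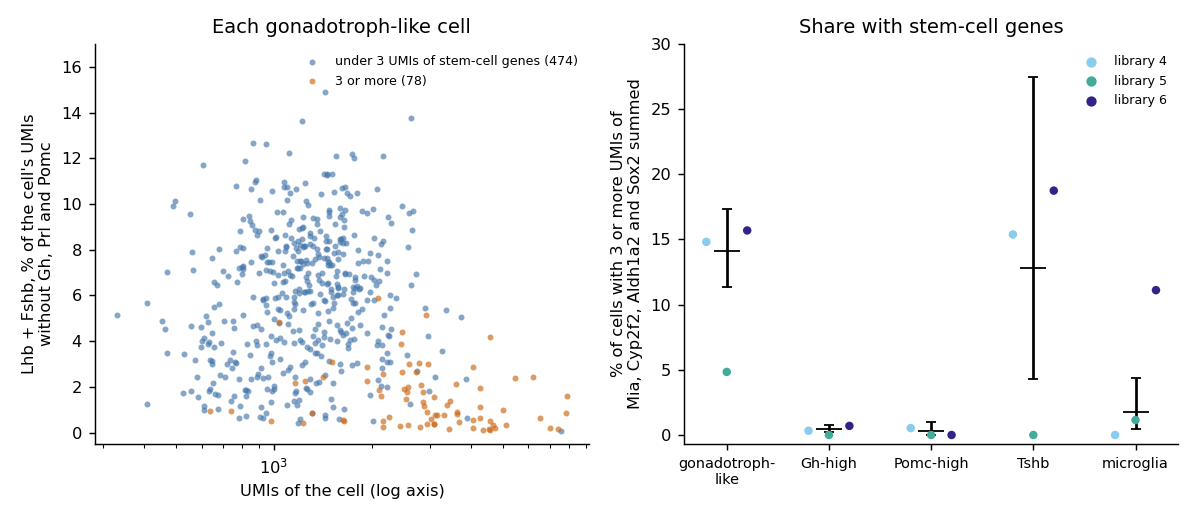
Left, each gonadotroph-like cell by its UMIs (x axis, log) and the share of Lhb and Fshb among its UMIs without Gh, Prl and Pomc (y axis), with the 78 cells that also held stem-cell genes in orange at the deep, low-share side. Right, the share of cells in 5 classes with 3 or more UMIs of Mia, Cyp2f2, Aldh1a2 and Sox2, as points for libraries 4, 5 and 6 and a black bar with the exact 95% binomial interval for all cells.

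Without these 78 cells the libraries lay closer together in hormone content. Lhb, Fshb and Cga together took 17.4%, 21.9% and 15.6% of UMIs without Gh, Prl and Pomc in libraries 4, 5 and 6 over all gonadotroph-like cells, and 22%, 23% and 20.4% over the 184, 59 and 231 cells left. Over all gonadotroph-like cells the Fshb part of the Lhb and Fshb UMIs was 12.8%, 13.8% and 12.6%. Without the 78 it was 12%, 13.7% and 12.3%, so in this part the libraries did not lie closer together. The share of cells with Gnrhr was 47.3%, and 348 genes were higher and 1105 lower than in Gh-high cells, of 7148 tested.

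Markers of other cell types were summed in the gonadotroph-like cells. The somatotroph markers Ghrhr and Pou1f1 summed to 24.3 CPM (16.4 to 32.5 over the libraries) against 697 in Gh-high cells, and Tbx19, Crhr1, Pax7 and Pcsk2 to 217 CPM (157 to 267) against 62 in Gh-high and 3146 in Pomc-high cells, with 1 of the 4 at 0. The lactotroph marker Drd2 and the thyrotroph marker Trhr were at 0. For microglia, 5 of 5 markers were detected, at 45 CPM in sum against 14883 in microglia, and for macrophages 2 of 3, at 18.5 CPM against 8.22 in Gh-high cells (5.48, 185 and 2.32 in libraries 4, 5 and 6). The level in library 5 came from 1 cell with 13 Lyz2 UMIs. Astrocyte markers, 4 of 4 detected, summed to 329 CPM (232 to 441) against 257 in Gh-high cells. Of them, Aldoc was at 234 against 99.9 CPM, while Slc1a2 (32.3 against 65.1), Slc1a3 (38.1 against 52.5) and Gja1 (24.3 against 39.2) were lower than in Gh-high cells. Markers of oligodendrocytes summed to 33.5 against 24.7. The sum of Sox2, S100b, Sox9 and Cd9 was 261 CPM (57 to 307) against 116 in Gh-high cells, and 31 cells had 3 or more UMIs of them. At least 3 UMIs of astrocyte markers were found in 39 cells, of neuron markers in 6, of endothelial markers in 5 and of erythroid markers in 4, the highest with 126. Gh was found in every gonadotroph-like cell, at a median of 0.759% of UMIs, beside 0.824% in microglia and 0.803% in Pomc-high cells. Over 5% Gh was seen in 21 cells and over 5% Prl or Pomc in 2 each.

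All 552 cells had between 331 and 7857 UMIs, with a median of 643.5 genes. The 3 libraries held 3965301, 2121900 and 5488950 UMIs, with 869, 565 and 1055 for the median cell. Among 10072 barcodes, 41 occurred in at least 2 of these libraries. Such a barcode belonged to 5 gonadotroph-like cells, and 0 shared it with another gonadotroph-like cell. In GENCODE M21 on GRCm38, Lhb (chr7:45420820-45421897) shares 138 bases with Ruvbl2 on the other strand, and Tgfbr3l (chr8:4248214-4251423) lies inside the gene model Gm49320 on the same strand, so reads there could be shared between models. The GENCODE models of Lhb and, by a few bases, Fshb begin upstream of the RefSeq starts used for the printed windows. Part of those windows thus lies inside the models, and the motif positions hold for the RefSeq starts only.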

How the data were processed

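The authors dissociated the tissue with papain, removed myelin with beads and captured cells with the 10X Genomics Chromium version 2 kit. Per the labels, reads were processed with Cell Ranger 2.2.0 on GRCm38. What they deposited holds UMI counts without normalization, in 1 file of 18634 genes by 29571 cells. It had 0 columns of another series, and counts per library are given above.

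The tools were scipy 1.17.1, numpy 2.4.6 and pandas 2.3.3 in Python 3.11.15, with matplotlib 3.10.9 for figures. Each class of cells had its UMI counts added up and scaled to CPM without Gh, Prl and Pomc. Ratios used a pseudocount of 10 CPM and genes of at least 20 CPM in either class, with 2-fold as the limit. Exact Poisson and Clopper-Pearson intervals are at 95% and cover counting error only. Microglia had at least 5 UMIs of C1qa, C1qb and Cx3cr1. No doublet caller was run. Cells with other classes' markers were counted, and left out as an alternative. Cells under 300 such UMIs were left out of thinning (715 Gh-high, 3 Pomc-high and 1 microglia).

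Named genes were those of the fixed lists, plus the 20 highest and 10 lowest ratios to Gh-high cells among genes in at least 10% of cells of the higher class, at least 20 CPM there, and the same direction in 3 libraries. Some genes that the rule names are not reported here and stay in the counts over genes. The members and lists were chosen with earlier results of these data known. The alternatives concerned membership, depth, pseudocount, filter, totals, averaging over cells, free RNA and libraries left out. Leaving out cells with stem-cell genes, centring and a Gh limit of 5% were added after seeing the data.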

Additional observations from a re-analysis of the deposited data

Results flagged for a closer look

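Lhb UMIs above the limit of 3 counts were found in 3 libraries that held no gonadotroph-like cell. Library 7 had 18 Lhb and Fshb UMIs in sum, library 8 had 28 and library 9 had 55, all of them Lhb, beside 0 Fshb and 0 Cga UMIs in each. They lay in 18, 25 and 51 cells (0.482%, 0.710% and 1.37% of cells), with at most 2 in a cell. Library 3 had 2 Lhb and 1 Fshb UMIs, and libraries 1 and 2 had 0 of both. In libraries 4, 5 and 6, Lhb UMIs came with Fshb and Cga. Libraries 7, 8 and 9 held 1, 18 and 4 Gh UMIs.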

How the results depend on the processing

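No paired test was made. The compared classes of cells lay in the same 3 libraries, and their differences were taken within each library and over all. Each region and sleep group had 1 library. Leaving out 1 library at a time gave 278 to 490 cells. Cga was found in 98.7% of cells after thinning to 300 UMIs, Gnrhr in 14.7%, and Lhb with Fshb in 79.5%. Gnrhr was found in 52.2% of cells of at least 1000 UMIs, and Lhb with Fshb in 94.5% with a minimum sum of 3 UMIs.

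Against Gh-high cells (439 genes higher and 800 lower of 7289 tested), a pseudocount of 1 CPM gave 1285 lower, and 50 CPM gave 115 higher and 150 lower. Filters, totals and free RNA also changed the number of genes tested. Genes of at least 50 CPM gave 202 and 467 of 3525, and totals of all genes 2710 and 55 of 5849. Totals without hormone, mitochondrial and hemoglobin genes gave 707 and 561 of 7889. Subtraction of free RNA gave 727 and 1758 of 5508, and centring 438 lower of 7289. Against Pomc-high cells (437 and 439 of 6898 tested), a pseudocount of 1 CPM gave 795 lower, and 50 CPM 103 and 91. Genes of at least 50 CPM gave 195 and 242 of 3183, and totals of all genes 733 and 150 of 6223. Totals without hormone, mitochondrial and hemoglobin genes gave 795 and 281 of 7484, and free RNA subtracted 740 and 1251 of 4859. Leaving out 1 library gave 455 to 734 lower, the highest without library 6 (of 7116 tested).

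With totals of all genes the log2 difference from Gh-high cells turned for Nr3c1 (0.31), Insr (0.023), Camk2d (0.31), Atf3 (0.21), Nnat (0.012) and Meg3 (0.32). Without the cells with stem-cell genes it turned for Mia (-0.92) and Fstl1 (-0.19), and against Pomc-high cells to -0.41 and -0.091. The cause was not tested, beyond what each setting changes by its construction. Of 56 named genes at least 2-fold from Gh-high cells, 35 kept 2-fold under every setting, as did 34 of 54 against Pomc-high cells. Depth limits low genes: 3 counts in gonadotroph-like cells are 3.46 CPM.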
